A study of Mus musculus with 2 samples.

Results

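The acute phase proteins are plasma proteins that hepatocytes secrete in changed amounts during inflammation, and Socs3 encodes the feedback inhibitor of the cytokine signal that drives them. The genes examined here were the serum amyloid A genes Saa1, Saa2, Saa3 and Saa4, the orosomucoid genes Orm1 and Orm2, haptoglobin (Hp), serum amyloid P component (Apcs), inter-alpha-trypsin inhibitor heavy chain 4 (Itih4) and Socs3. They were found as the non-control probes of the array whose gene name was one of these symbols. That gave 11 probes for the 10 genes, of 39429 probes on the array, and all 10 were among the 19951 genes well above background on both arrays. RNA came from C57BL/6N mouse liver, 1 pool of wild-type (WT) animals and 1 pool of Pnpla8-/- animals, which lack a calcium-independent phospholipase A2. Each pool joined equal amounts of RNA from 5 animals and was hybridised to 1 one-colour Agilent array. The sample labels give the age as 6 weeks and the design text as 8 weeks. No treatment is named in the labels, and they do not say which part of Pnpla8 was removed.

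In the classical scheme, macrophages release interleukin-6 and interleukin-1 in response to infection or injury. Interleukin-6 binds its receptor and the shared subunit gp130 on hepatocytes, the kinases of the JAK family phosphorylate STAT3, and STAT3 acts with C/EBP factors and NF-kB at the genes of the acute phase. Socs3 is itself a STAT3 target; its product binds gp130 and the JAK kinases and shuts the signal off. Saa1 and Saa2 are made mainly by hepatocytes and ride on high-density lipoprotein, Saa3 is made in mouse also by macrophages and fat cells, and Saa4 is the constitutive form.

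With 1 array per genotype there was no replicate, so no test and no p-value is given, and genotype, pool and array position cannot be told apart. Differences are described by size, and a gene is counted as higher or lower when the scaled signals differ at least 2-fold. The number of arrays limits the precision. Signals were scaled by each array's 75th percentile, which was 1207 in WT liver and 1018.2 in knockout liver. Of 43020 spots the wild-type array had 70.1% well above background and the knockout array 65.6%, and 0 were saturated. The targeted gene Pnpla8 gave 144.5 units in WT liver and 4.45 units in knockout liver. The second value was not well above background, so Pnpla8 was lower by a factor of at least 6.81, taken against the dimmest spot that was; whether its probe lies in the deleted part is unknown. Hepatocyte markers were present in both pools, as 8 of 9 listed were measured with a median log2 ratio (knockout over wild type) of 0.24. Among the 8, 7 were above 0 and 1 below, with Tat past 2-fold at 1.32 and Cps1 at 0.99. Their median ran from -0.01, without scaling, to 0.30.

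Sequences help to read these values in 2 ways: they show what each probe can bind, and they show how alike the promoters of the serum amyloid A genes are. Each gene was read by a single spot of a 60-base probe, except Itih4, which had 2 probes. The sequences of the Saa3, Orm1 and Orm2 probes are shown because Saa3 stands apart from its family and because the orosomucoid genes are near-identical copies. The Saa3 probe lies at chr7:53970389-53970448 and the Orm2 probe at chr4:63024979-63025038 in build mm9, the build named in the array file's header. The file leaves the Orm1 probe unmapped. All letters are in lower case because the whole probe is the target.
Saa3 probe: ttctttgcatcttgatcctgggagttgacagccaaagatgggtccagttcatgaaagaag
Orm1 probe: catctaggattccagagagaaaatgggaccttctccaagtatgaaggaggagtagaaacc
Orm2 probe: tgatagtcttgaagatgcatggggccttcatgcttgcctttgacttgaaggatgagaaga

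In the best ungapped placement the Saa1 and Saa2 probes matched at 18 of 52 bases, the Saa1 and Saa4 probes at 23 of 59 and the Orm1 and Orm2 probes at 24 of 56. None of the 11 probes shared 20 or more consecutive bases with another probe of the array. That comparison is between probes and not with transcripts, so binding of a probe to a near-identical transcript of its family was not tested, and the Saa1, Saa2, Orm1 and Orm2 values are uncertain in that respect. The gene names are also exchanged in older usage: the RefSeq table lists Saa2 as a synonym of Saa1 and Saa1 as a synonym of Saa2. The names here follow the transcripts on which the probes were designed, NM_009117 for Saa1 and NM_011314 for Saa2.

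Promoter windows, 250 bases before to 50 bases after the annotated start, were held for 8 of the 10 genes in the RefSeq table of build GRCm38.p6. The 250 bases before the start of Saa1 (chr7:46742981-46743230, minus strand), Saa2 (chr7:46751583-46751832, plus strand), Saa3 (chr7:46715677-46715926, minus strand) and Socs3 (chr11:117969367-117969616, minus strand) are shown, the first pair because they are nearly the same and the others because those genes differed most between the pools. Capitals mark a match to a C/EBP motif (TTGCNNAA) or a STAT motif (TTCNNNGAA) on either strand.
Saa1 promoter: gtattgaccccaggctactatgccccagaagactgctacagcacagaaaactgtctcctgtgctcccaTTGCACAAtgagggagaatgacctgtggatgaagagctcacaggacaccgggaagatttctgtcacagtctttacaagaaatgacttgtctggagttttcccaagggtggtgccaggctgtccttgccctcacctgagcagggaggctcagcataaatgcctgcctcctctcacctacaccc
Saa2 promoter: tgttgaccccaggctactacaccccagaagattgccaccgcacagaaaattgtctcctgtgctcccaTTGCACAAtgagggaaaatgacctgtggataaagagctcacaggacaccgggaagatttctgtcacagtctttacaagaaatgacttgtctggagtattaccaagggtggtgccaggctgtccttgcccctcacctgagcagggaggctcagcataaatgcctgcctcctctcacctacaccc
Saa3 promoter: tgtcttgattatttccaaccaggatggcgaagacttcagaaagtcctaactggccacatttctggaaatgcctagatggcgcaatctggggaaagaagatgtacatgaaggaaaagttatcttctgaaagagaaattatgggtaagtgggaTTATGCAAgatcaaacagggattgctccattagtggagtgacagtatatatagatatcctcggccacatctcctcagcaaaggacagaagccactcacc
Socs3 promoter: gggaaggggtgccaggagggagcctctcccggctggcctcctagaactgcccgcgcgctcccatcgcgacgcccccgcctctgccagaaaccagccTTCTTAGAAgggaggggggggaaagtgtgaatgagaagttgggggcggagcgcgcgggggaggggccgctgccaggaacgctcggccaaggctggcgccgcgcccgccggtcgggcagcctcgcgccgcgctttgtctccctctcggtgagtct

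Over the 300-base windows, Saa1 and Saa2 were identical at 287 of 301 aligned positions (95.3%), whereas Saa1 and Saa3 were identical at 50.1% and Saa1 and Saa4 at 44.0%. The C/EBP motif was present in the windows of Saa1, Saa2, Saa3, Saa4 and Orm2, and in 10.8% of 32851 promoter windows in the table. The STAT motif was present in those of Apcs, Itih4 and Socs3, and in 8.30% of all windows. The NF-kB decamer, held by 8.46% of all windows, and the palindromic glucocorticoid response element, held by 0.475%, matched none of the 8. A match is a run of letters and not a bound site.

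Socs3 and Saa3 were lower in knockout liver by 2-fold or more, 2 of the 10 genes, and 0 of the 10 were higher by that much. Of the 19951 measured genes, 1.85% were lower by 2-fold or more and 1.29% higher, 3.14% in either direction. At 1.5-fold the counts of the 10 genes were again 2 and 0, against 5.93% lower, 4.42% higher and 10.4% in either direction. The other 8 genes lay within 2-fold. The median log2 ratio of the 10 was -0.16, against 0.04 over all measured genes, and the ratios ran from -1.24 to 0.42. For every one of these spots the error that Feature Extraction assigned to the processed signal was 10% of it, which gives 0.20 on the log2 scale for a ratio of 2 spots and 0.14 for Itih4 with 2 probes. That error is technical, comes from the software's error model, and holds nothing of the spread between animals or pools. Probes spotted at least 8 times gave a smaller spread, with a median SD of the log2 ratio of 0.05 between spots (290 probes), and different probes of 1 gene a median SD of 0.10 (4286 genes).

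**Figure D1:**
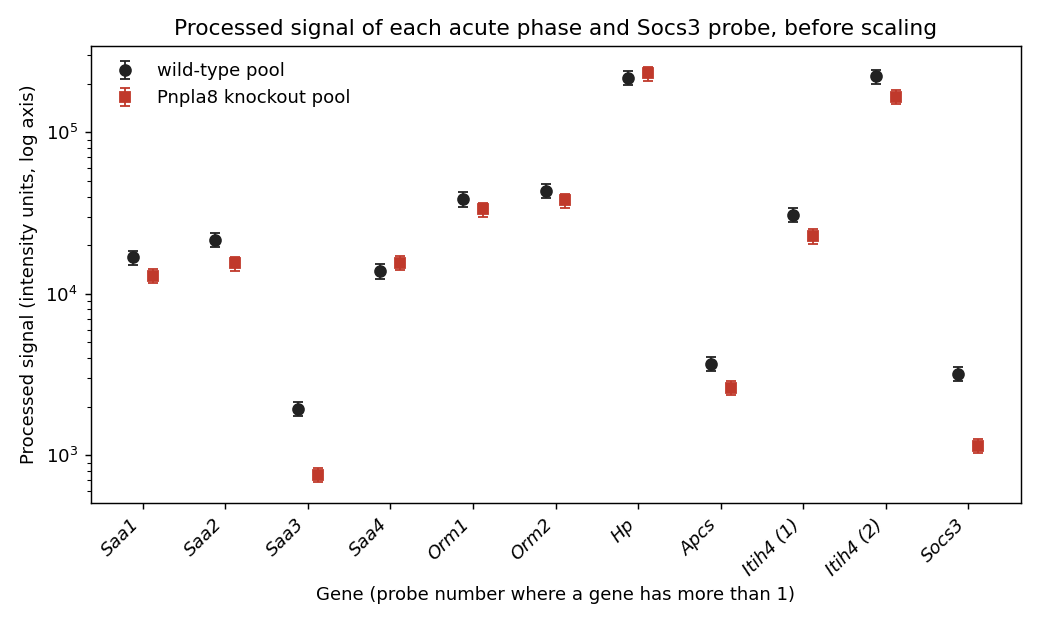
Processed signal of each probe (log axis, intensity units, not yet scaled between arrays) in the wild-type pool (black circles) and the Pnpla8 knockout pool (red squares); bars are the error Feature Extraction assigned to each spot, 10% of the signal. The Saa3 and Socs3 points of the 2 pools lie far apart, and those of Orm1, Orm2, Saa4 and Hp have overlapping bars.

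Socs3, the feedback inhibitor, gave the lowest ratio of the 10. Its probe, on the minus strand at chr11:117827480-117827539 (mm9), read 3187.8 in the wild-type pool and 1138.7 in the knockout pool. After scaling the signals were 2.64 and 1.12 times the 75th percentile of their arrays, so Socs3 was 2.36-fold lower in the knockout pool (log2 ratio -1.24, error 0.20). The wild-type signal was the higher by 6.2 times that error. Of all measured genes, 0.7% had a lower ratio. Under each of the 12 alternative settings the ratio stayed past 2-fold, between -1.49 and -1.18. The flag, dim-probe and probe-summary rules could not move a gene read by 1 unmarked spot well above background. The deposited table is the same intensity rescaled, so only the scaling settings and normexp could change the value.

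Saa3, the serum amyloid A that macrophages and fat cells also make, was next. It read 1929 in the wild-type pool and 756.5 in the knockout pool, or 1.60 and 0.743 times the 75th percentile. Scaled, it was 2.15-fold lower in the knockout pool (log2 ratio -1.11, error 0.20), and 1.3% of all measured genes had a lower ratio. Each of the 12 alternatives left it past 2-fold, from -1.35 to -1.04, and here too only the scaling settings and normexp could change the value. Socs3 and Saa3 differed from each other by 0.13, which is 0.5 times the error of that difference.

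The liver forms of serum amyloid A, which are the major inducible proteins of the acute phase in mouse, lay much closer to equality. Saa1 (chr7:53996070-53996129, mm9) read 16796.1 in WT liver and 12906.8 in knockout liver, a scaled log2 ratio of -0.13. Saa2 (chr7:54009622-54009681) read 21554.2 and 15459.9, a scaled log2 ratio of -0.23. Both were lower in the knockout pool under all 12 alternatives, between -0.38 and -0.07 for Saa1 and between -0.48 and -0.17 for Saa2, yet their main values were 0.6 and 1.2 times the error of 0.20. This pair, which has near-identical promoters, differed by 0.10 in log2 ratio, 0.3 times the error of the difference. Whether the promoters have a part in these ratios was not tested.

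Saa4, the constitutive member, had the highest ratio of the 10. Its probe (chr7:53983662-53983721) read 13800.2 in WT liver and 15590.5 in knockout liver, 1.34-fold higher after scaling (log2 ratio 0.42, error 0.20). It stayed above 0 in the 11 alternatives that kept its spot, from 0.18 to 0.48. Within the family, the log2 ratio of Saa3 was lower than that of Saa1 by 0.97, of Saa2 by 0.87 and of Saa4 by 1.53, which are 3.4, 3.0 and 5.3 times the error of the difference. Saa4 exceeded Saa1 by 0.56 and Saa2 by 0.66, 1.9 and 2.3 times the error. The 4 probes lie in a row on chromosome 7, and the probe of Saa4, with the highest ratio, lies between those of Saa3 and Saa1.

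The orosomucoid genes encode alpha-1-acid glycoproteins, which bind drugs and lipids in plasma. Orm1 read 38552.9 in the wild-type pool and 33344.4 in the knockout pool, and Orm2 43458.1 and 37825.5. After scaling the log2 ratios were 0.04 and 0.05, close to the median of all genes, and 0.2 times the error. Their direction depended on the scaling: with quantile, loess, spike-in or no scaling both were below 0, down to -0.21 for Orm1 and -0.20 for Orm2. The third gene of the cluster, Orm3, was not one of the 10 but was on the list of other acute phase genes; its signal was 1.21 times the 75th percentile in WT liver and 2.25 in knockout liver, a log2 ratio of 0.89. Orm3 exceeded Orm1 by 0.86 and Orm2 by 0.85, which are 3.0 and 2.9 times the error. The promoter windows of Orm2 and Orm3 were 86.2% identical, and a link between promoter and ratio was not tested.

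Haptoglobin captures free haemoglobin in plasma. Hp read 217294.5 in the wild-type pool and 231731.4 in the knockout pool, 180 and 228 times the 75th percentile. It was 1.26-fold higher in the knockout after scaling (log2 ratio 0.34, 1.7 times the error) and above 0 in all 12 alternatives, but by 0.09 without scaling. Serum amyloid P component, the mouse pentraxin of the acute phase, read 3696.4 in WT liver and 2604.6 in knockout liver (Apcs, log2 ratio -0.26, 1.3 times the error). The Itih4 gene encodes a plasma protein that is a substrate of kallikrein. Its probe at chr14:31711222-31711281 read 30720.6 and 22734.2, and its probe at chr14:31714970-31715029 read 222523.9 and 165997.8. Though the probes read very different signals, their log2 ratios were -0.19 and -0.18, and the gene's value of -0.18 was 1.3 times its error of 0.14. Apcs and Itih4 were below 0 in all 12 alternatives.

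**Figure D2:**
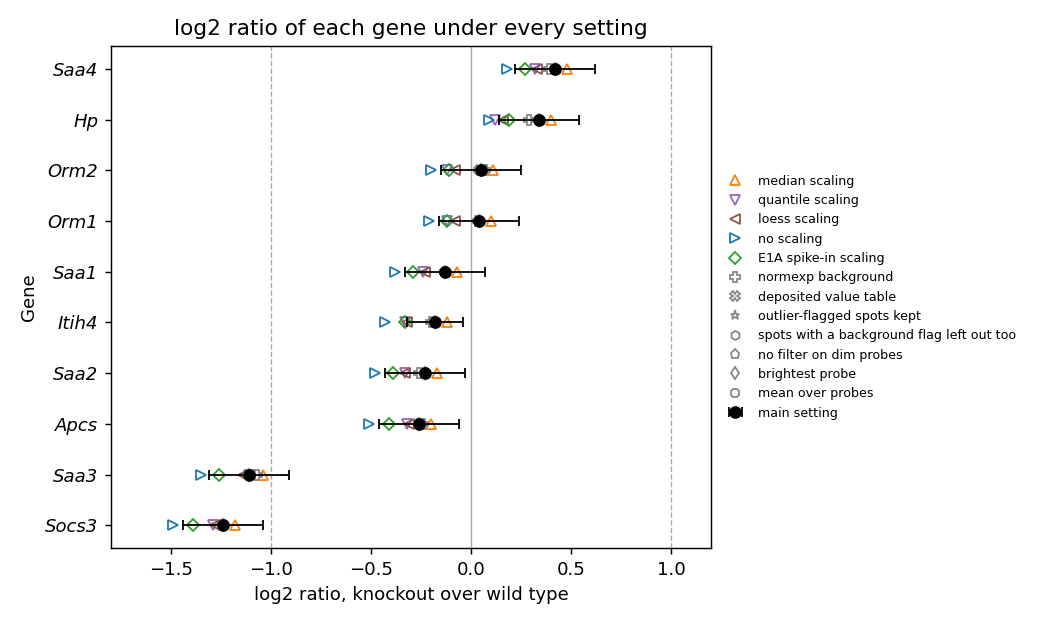
Log2 ratio (knockout over wild type, x axis) of each of the 10 genes (y axis, ordered by ratio) in the main setting (black, bars are the error of 0.20 or, for Itih4, 0.14) and in the alternatives (open symbols); dashed lines mark 2-fold. Saa3 and Socs3 lie below -1 in every setting, while Orm1 and Orm2 fall on either side of 0.

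Ordered by ratio, the genes ran Socs3, Saa3, Apcs, Saa2, Itih4, Saa1, Orm1, Orm2, Hp and Saa4. Of the 9 pairs of neighbours, 1 differed by more than 2 times the error of the difference, Saa3 and Apcs, which were 0.85 apart. The order inside the other 8 is not resolved by these spots. The group therefore falls into 2 genes that were much lower in the knockout pool and 8 between -0.26 and 0.42.

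**Figure D3:**
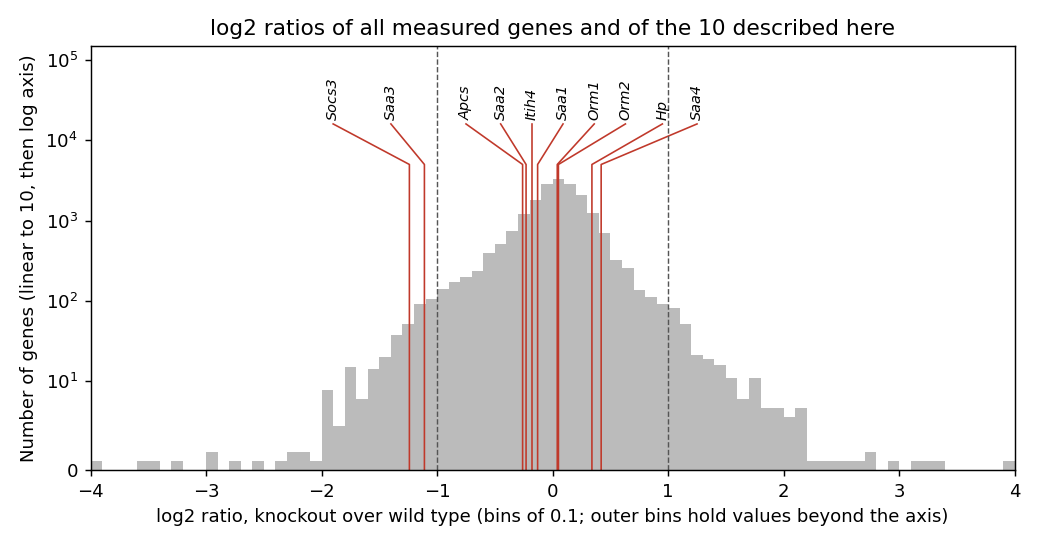
Number of genes (y axis, linear to 10 and then logarithmic) by log2 ratio of knockout over wild type (x axis) for the 19951 measured genes, with red lines at the 10 genes described here and dashed lines at 2-fold. Socs3 (-1.24) and Saa3 (-1.11) lie in the lower tail and the other 8 within the bulk.

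Saa3 is known from macrophages, so markers of liver macrophages were set beside it. All 12 Kupffer cell and macrophage markers were measured and all 12 were lower in the knockout pool, with log2 ratios from -1.34 to -0.82 and a median of -0.92. The upper end was Csf1r, whose 3 probes ran from -0.96 to -0.17 and whose mean over probes was -0.65. Marco, a scavenger receptor, had -1.34, Cd5l -1.22, Adgre1 -1.16, Timd4 -1.07 and C1qa -1.05; these 5 were past 2-fold. The markers are found on resident liver macrophages. The summed signal of the 12 was 96.0 times the 75th percentile in WT liver and 45.6 in knockout liver. The ratios of Saa3 and of Socs3 both lie inside the range of these markers. In such bulk RNA fewer cells of a type and less RNA per cell cannot be told apart, and the part of these cells in the Saa3 and Socs3 values was not tested. With the normexp background Timd4 had -0.95, and C1qa was under 2-fold with median scaling.

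Markers of other cell types that could carry Saa3 or Socs3 were set beside them in the same way. Of 5 monocyte markers 4 were measured, all below 0 with a median of -0.82. Ccr2 had -1.02, Chil3 -0.90, Plac8 -0.73 and Itgam -0.07, but the 3 Itgam probes ran from -0.69 to 0.48. The summed signal of the 4 was 1.0 times the 75th percentile in WT liver and 0.614 in knockout liver. Of 9 neutrophil markers 6 were measured with a median of -0.42, S100a8 at -1.75, S100a9 at -1.65, Retnlg at -0.65, Mpo at -0.19, Elane at -0.01 and Camp, the 1 above 0, at 0.19, and a summed signal of 2.67 and 1.79. Among 5 adipocyte markers only Retn was measured (-0.20), and leptin (Lep) was not well above background in either pool. Adipoq, Plin1 and Cfd were well above background in the wild type alone. Cfd was lower in knockout liver by a factor of at least 2.26 and Adipoq by at least 1.06, and Plin1 gave no such factor. For these factors the knockout signal was the probe's own or the array's dimmest well above background, whichever was higher. Passing the filter in the wild type alone favours a lower knockout value. With the normexp background Ccr2 had a value of -0.33 in place of -1.02, and the medians of the monocyte and neutrophil lists were -0.34 and -0.01.

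The cytokines at the start of the response were near the detection limit in these livers. Interleukin-6 (Il6) and tumour necrosis factor (Tnf) were well above background in WT liver alone, and lower in knockout liver by factors of at least 1.60 and 1.24. The knockout signal was taken as the probe's own or the array's dimmest well above background, whichever was higher. So near the background these factors are uncertain, and passing the filter in WT liver alone favours a lower knockout value. Interleukin-1 beta (Il1b) was measured in both, with a signal of 0.216 times the 75th percentile in WT liver and 0.0881 in knockout liver, 2.46-fold lower (log2 ratio -1.30; -0.84 with the normexp background). Of the 25 listed cytokines and receptors 19 were measured, 2 were lower by 2-fold or more and 0 higher, and their median was -0.06. The interleukin-6 receptor gene Il6ra had 0.95 and the leptin receptor gene Lepr -1.55, but the 3 Lepr probes ran from -1.65 to 0.01 and its brightest gave 0.01. Il22ra1 had -0.86 (-0.25 with normexp and -1.10 without scaling) and Il6st, which encodes gp130, -0.09.

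The transducers between receptor and gene differed little. Of 38 JAK-STAT and NF-kB genes 37 were measured and 0 were 2-fold apart in either direction, with a median of -0.03. Stat3 had 0.17, Jak1 0.00 and Jak2 0.00. Relb had -0.66, Cebpb 0.66 and Bcl3 -0.46. Cebpb and Cebpd encode the C/EBP factors that act on the acute phase genes, and Cebpd was 2.07-fold higher in the knockout pool (1.05), a value short of 2-fold with quantile, loess, spike-in or no scaling.

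Socs3 belongs to a family of 8 cytokine signalling inhibitors, and none of the other 7 reached 2-fold in the main setting. Cish had -0.85 (-1.10 without scaling, and past 2-fold with the spike-ins too), Socs2 -0.64 and Socs1 -0.59, the inhibitors that like Socs3 are induced by the signals they stop. Socs4, Socs5, Socs6 and Socs7 had 0.02, -0.02, -0.06 and 0.13. The family's median without Socs3 was -0.06, and in signal Cish went from 5.96 times the 75th percentile in the wild type to 3.30 in the knockout. The 3 Socs2 probes ran from -0.65 to -0.59.

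Immediate targets of interleukin-6 and STAT3 other than Socs3 went both ways. All 17 listed were measured, 1 was lower and 1 higher by 2-fold or more, with a median of -0.18. Fos had -1.79, Icam1, an adhesion molecule, -0.99, Pim1 -0.80, Ccnd1 -0.75 and Myc -0.63, beside Cebpd at 1.05 and the kinase gene Pim3 at 0.95. With the normexp background Icam1 had -0.38.

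Among the other positive acute phase genes, those that rise in inflammation, 35 of 38 listed were measured, 4 higher and 1 lower by 2-fold or more, with a median of 0.14. The metallothioneins Mt2 and Mt1, which bind zinc, had 2.14 and 1.76, Il1rn, the interleukin-1 receptor antagonist, 1.09 and Cebpd 1.05. The 2 Mt1 probes had 1.36 and 2.16, and the brighter gave 1.36. Il1rn was dim, at 0.0327 times the 75th percentile in the wild type, and had 0.58 with normexp. Just under 2-fold lay lipocalin 2 (Lcn2, 0.97), the hepcidin genes Hamp2 (0.95) and Hamp (0.91) and Orm3 (0.89). The classical plasma proteins were closer to 0: fibrinogen chains Fga, Fgb and Fgg had 0.28, 0.19 and 0.14, C-reactive protein (Crp) 0.25, complement C3 0.21, hemopexin (Hpx) 0.08, Lbp 0.07 and ceruloplasmin (Cp) -0.11. The median of this list was below 0 without scaling (-0.11) and with the spike-ins (-0.01).

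Negative acute phase genes, whose products fall in inflammation, had a median of 0.12 over all 23 listed, with 0 higher and 1 lower by 2-fold or more, Serpina7, the thyroxine-binding globulin (-1.18). Albumin (Alb) had 0.24, transthyretin (Ttr) 0.16, Apoa1 -0.15 and Serpina6, corticosteroid-binding globulin, 0.44. Apoa4 had -0.56 and Hrg 0.43. The median of the list was below 0 with quantile, loess, spike-in or no scaling, down to -0.13.

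**Figure D4:**
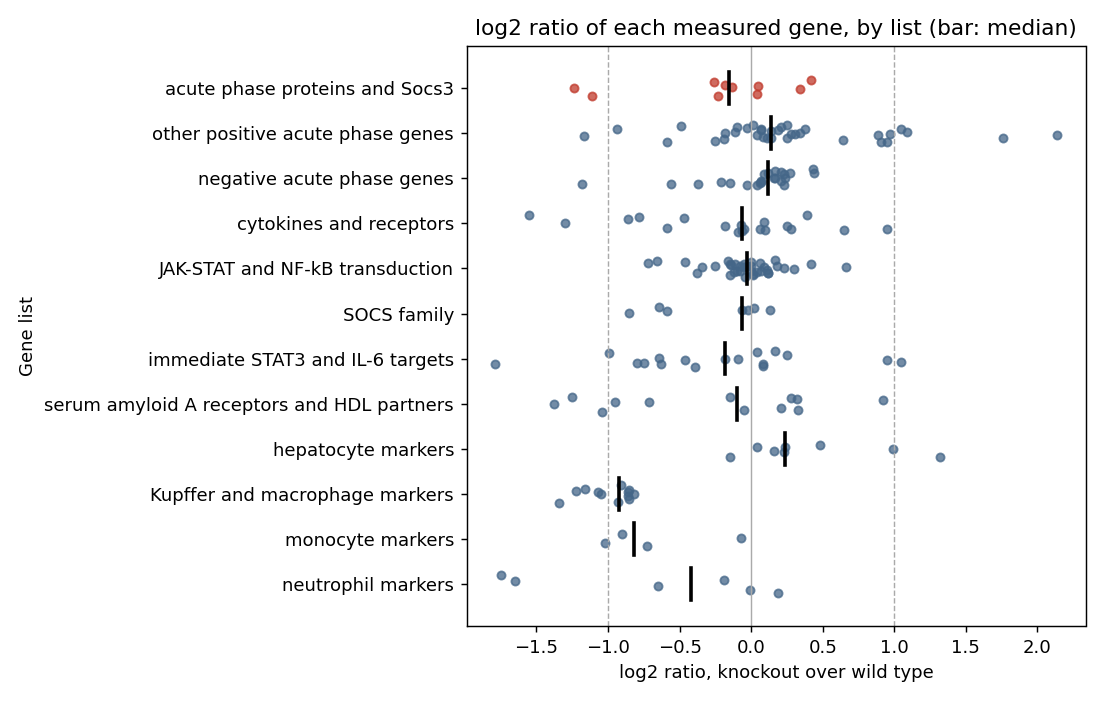
Log2 ratio of knockout over wild type (x axis) of each measured gene (points) in the 10 genes described here (red) and in 11 lists (blue), with black bars at the list medians and dashed lines at 2-fold. The Kupffer cell and macrophage markers all lie between -1.34 and -0.82, while the acute phase lists spread around medians of 0.14 and 0.12.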

How the data were processed

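Spots were read with the scanner software named in the submitters' processing notes (Agilent Feature Extraction, version 11.5.1.1). The authors deposited a linear intensity for every spot, with its error and flags. Per the labels' protocols 200 ng of RNA was amplified and labelled with Cy3. The deposited value table held the same intensity divided by 1 constant per array (1207.2 and 1018.6; column medians 0.080 and 0.0763), close to the 75th percentiles. 

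Here log2 of the processed signal was scaled by the 75th percentile of non-control spots. Spots with a non-uniformity or population mark on the spot itself were left out (119 and 170). Marks on the local background (780 and 746) were ignored: on 100% of spots the subtracted background was a fitted surface and not the local one. That choice was made after seeing the data, and knowing that leaving such spots out would remove Saa4 and Orm2. Probes not well above background on both arrays were left out, and the remaining probes of a gene were summarised by their median ratio. Accessions named 28330 of the 39429 probes and symbols or synonyms 2378, from the RefSeq table of GRCm38.p6. Genes were named by the rule: the 10 genes with every probe, Pnpla8, and in each list the members past 2-fold and up to 4 with the largest ratio; others are named for their role, after their values were seen, and some listed genes are not reported here. The 10 genes and the lists were chosen with earlier results of these data known. Alternatives were median, quantile, loess (span 0.3), spike-in (8 E1A probes) or no scaling, normexp (offset 50), the deposited table, other flag, dim-probe and probe-summary rules, and 1.5-fold; leaving out background-marked spots was an alternative chosen after seeing the data. The steps were tested on simulated data. Software was Python 3.11.15 with pandas 2.3.3, numpy 2.4.6 and statsmodels 0.14.6, and limma 3.58.1 in R 4.3.3.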

Additional observations from a re-analysis of the deposited data

How the results depend on the processing

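The 10 genes were recomputed under 12 alternatives. The counts of 2 genes at least 2-fold lower and 0 higher were the same in all of them, and also at 1.5-fold and with bounds counted. Several of these could hardly differ. The deposited table and the dim-probe and probe-summary rules leave a gene with 1 spot nearly or fully unchanged. Bounds could not alter the counts because all 10 genes were measured. Without scaling the median of all genes moved from 0.04 to -0.21, the median of the 10 genes from -0.16 to -0.40, Saa3 to -1.35 and Socs3 to -1.49. With the spike-in controls these were -0.31, -1.26 and -1.39. The median of the 10 was -0.28 with quantile and -0.27 with loess scaling. These values moved by more than 0.10, the median SD between probes of a gene; Saa3 and Socs3 kept their sign, and Orm1 and Orm2 did not, as given with their values. Over all genes the counts at 2-fold were 258 higher and 369 lower, and 116 and 759 without scaling, 145 and 585 with the spike-ins, 135 and 128 with normexp, and 994 and 1235 with dim probes kept. Leaving out spots with a mark on the local background removed Saa4 and Orm2, which then had no value. Of 204 list medians under the alternatives 148 stayed within 0.10, and 7 of 17 lists kept 1 sign in all. No replicate could be left out. No paired analysis was possible because each group has 1 array.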

Other observations

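Genes that meet the acute phase proteins in plasma or at the cell surface gave further values. Of 13 serum amyloid A receptors and lipoprotein partners 12 were measured, with a median log2 ratio of -0.10. In knockout liver 3 of them were lower by 2-fold or more: the formyl peptide receptors Fpr2 (-1.38) and Fpr1 (-1.25), which are found on myeloid cells, and Tlr2 (-1.04). Fpr2 had -0.97 and Tlr2 -0.84 with the normexp background. The lipoprotein partners went both ways, with the scavenger receptor Cd36 at 0.92, Scarb1 at 0.33 and Lcat at 0.32, and with Pltp at -0.95, Apoa1 at -0.15 and Abca1 at -0.05.

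The relatives of Itih4 gave 5 measured genes of 7 listed, between -0.03 for Itih1 and 0.17 for Ambp, with a median of 0.07. In the haemoglobin and haem clearance list, which holds the partners of haptoglobin, all 10 were measured and 0 were 2-fold apart, with a median of 0.04. Its largest difference was that of Cd163, the macrophage receptor for haptoglobin bound to haemoglobin, at -0.83 (-0.18 with normexp and -1.07, past 2-fold, without scaling), and Hmox2 had 0.30. Of the remaining cell markers, those of stellate cells had a median of -0.40, those of endothelium 0.02 and those of cholangiocytes -0.11. In the stellate list Acta2 had -1.01, but -0.95 with median scaling, -0.97 with quantile scaling and -0.84 with normexp. In the endothelial list Lyve1 had -0.66 and Cdh5 -0.44, and the other 3 of the 5 markers were above 0 by at most 0.03.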
